A study of Mus musculus with 9 samples.

Results

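The cytosolic ribosomal protein genes were followed in LSK cells, the lineage-negative marrow cells that stain for Sca-1 and c-Kit and include the blood-forming stem cells. Members were chosen by symbol: protein-coding mouse genes named Rps or Rpl with a digit, together with Rpsa, Rplp0, Rplp1 and Rplp2, with a deposited value of at least 1 in at least 3 of 9 libraries. Genes of the Rps6k kinase family and symbols ending in -ps were left out. Of 14461 deposited genes, 101 had a symbol of this form, 9 of them were Rps6k genes and 9 were -ps symbols, and the other 83 were members. All 83 passed the filter on low values. By the roles of their products, 30 belong to the small subunit, 43 to the large subunit and 3 to the acidic stalk, which makes a core of 76 genes. A further 6 are paralogues of core genes (Rps27l, Rps27rt, Rpl22l1, Rpl36al, Rpl3l and Rpl7l1), and 1, Rps19bp1, matches the symbol rule but encodes a nucleolar binding partner of Rps19 and no ribosomal protein.

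The libraries came from the bone marrow of parabiotic mice, animals joined by surgery so that they share a circulation, kept specific pathogen free. The circulating and irradiated groups carry the strain label C57BL/6 and the endogenous group B6SJL CD45.1, with 3 libraries each, so the strain label changes together with the group in both comparisons with endogenous cells, and strain and group cannot be told apart there. The study asked how LSK cells that had travelled to the marrow of an irradiated partner differ in their transcripts. Neither radiation dose nor age nor time is stated in the labels. Whether each library is a separate animal is not stated either, and the p-values below describe variation between libraries that could be technical.

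Ribosomal proteins assemble with ribosomal RNA into the small subunit, which reads the messenger RNA, and the large subunit, which joins the amino acids. Their genes are scattered over the genome yet their products are needed in near-equal amounts, and many of their transcripts begin with a run of pyrimidines, the 5′TOP element, through which mTOR signalling controls their translation. Blood-forming stem cells are known for a low and tightly held rate of protein synthesis, and loss of 1 copy of a ribosomal protein gene causes Diamond-Blackfan anaemia in humans. The members here lay on 19 chromosomes, with 14 of them on chromosome 7.

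Start-site windows of the 5 members that passed the test between circulating and endogenous cells are shown together with that of Rps27, the partner of the called paralogue Rps27l. Each runs from 40 bases before to 30 bases after the gene start in RefSeq, build GRCm38.p6, 5′ to 3′ on the gene's strand, and the capitals mark the longest run of C and T, or the first of equal runs in Rps27l and Rpl36al. The windows of Rpl4 (chr9:64173347-64173416, plus strand), Rps25 (chr9:44407674-44407743, plus), Rps27 (chr3:90213619-90213688, minus), Rps27l (chr9:66946046-66946115, plus), Rpl36al (chr12:69184038-69184107, minus) and Rpl7l1 (chr17:46782627-46782696, minus) read as follows.
Rpl4: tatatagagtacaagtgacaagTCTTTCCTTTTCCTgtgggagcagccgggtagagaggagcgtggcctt
Rps25: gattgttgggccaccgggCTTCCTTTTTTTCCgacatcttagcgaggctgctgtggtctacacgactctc
Rps27: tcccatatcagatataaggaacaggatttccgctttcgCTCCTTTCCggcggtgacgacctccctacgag
Rps27l: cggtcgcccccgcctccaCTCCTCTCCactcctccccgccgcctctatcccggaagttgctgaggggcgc
Rpl36al: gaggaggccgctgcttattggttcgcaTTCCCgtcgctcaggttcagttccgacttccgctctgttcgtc
Rpl7l1: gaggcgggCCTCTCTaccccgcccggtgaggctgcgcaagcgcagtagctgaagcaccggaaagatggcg

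In these windows the longest run was 14 bases in Rpl4 and in Rps25, 9 in Rps27 and in Rps27l, 7 in Rpl7l1 and 5 in Rpl36al. Relative to the annotated start the marked runs began at -18 in Rpl4, -22 in Rps25 and in Rps27l, -13 in Rpl36al, -32 in Rpl7l1 and -2 in Rps27. Only the Rps27 run reached past the RefSeq start, so the other marked runs lie outside a transcript that begins there. GENCODE places some gene starts further upstream: Rpl4 at chr9:64173375, Rps25 at chr9:44407139 and Rpl36al at chr12:69184083 (minus strand). By those starts, part of the Rpl4 run and the whole Rps25 and Rpl36al runs lie inside the gene. RefSeq promoters were matched for 63 of the 83 members, 75 promoters in all, since 10 members had several. Within 50 bases before to 50 bases after the start, an unbroken run of at least 8 C or T on the gene's strand was present in 57 of 75 member promoters (76%), beside 35.7% of all 32851 promoters. On the opposite strand the same run was present in 24% of member promoters, beside 38.1% of all. The letters CTTTCC, which can overlap such a run, were present on the gene's strand in 30.7% of member promoters and 4.69% of all, and on the opposite strand in 2.67% and 4.47%. CCGGAA, the core letters bound by ETS factors, was present in 17.3% of member promoters and 4.19% of all on the gene's strand, and in 13.3% and 4.6% on the other. These are letter matches in a fixed window and were not set against the expression values.

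The table holds a normalised signal: each deposited value has the form of an estimated read count plus 0.5, divided by a scaled library size. Estimated counts recovered from this form totalled 14065855 to 27012345 per library. Columns were scaled by implied factors of 0.940 ± 0.0557 in circulating, 0.985 ± 0.0279 in irradiated and 1.08 ± 0.0158 in endogenous libraries (SD, n = 3 each), which bears on every member value below. The sorting markers Ly6a, Kit, Cd34, Flt3 and Ptprc were all present, with a summed value of 2064 to 3266 in circulating, 2706 to 3013 in irradiated and 3845 to 4208 in endogenous libraries. All 8 granulocyte-monocyte progenitor markers were present and summed to 12923 to 39199 in circulating, 7682 to 16220 in irradiated and 2148 to 3086 in endogenous libraries. All 10 markers of cycling cells were present, with sums of 2511 to 4007 in circulating, 2590 to 3110 in irradiated and 1612 to 1742 in endogenous libraries. Sums of the 5 T cell markers were 4.54 to 84.7, 2.58 to 5.42 and 9.80 to 15.4 in circulating, irradiated and endogenous libraries, and those of the 6 B cell markers were 107 to 282, 67.6 to 93.5 and 69.3 to 99.2. Sums of 7 neutrophil markers (1147 to 1819, 789 to 1956 and 1062 to 2202) and of 6 of 7 erythroid markers (24.7 to 189, 28.1 to 80.6 and 61.7 to 247) overlapped between all 3 groups, whereas those of 4 plasma cell markers (1055 to 1784, 269 to 1490 and 354 to 762) overlapped except between circulating and endogenous libraries. Single markers had an estimated count of 0 in 3 libraries: Hbb-bs and Alas2 in circulating 2, Cd3e in irradiated 2 and Pax5 in endogenous 2. The progenitor, cycling and sorting marker sums separated both other groups from the endogenous one. The plasma and B cell sums separated the circulating from the endogenous group, and the T cell sum the irradiated from the endogenous one. Single markers did not all follow these sums. Ly6a overlapped between irradiated and endogenous libraries, Ptprc and Flt3 between circulating and endogenous ones, and Csf1r in both comparisons. The B cell markers Cd79b, Ms4a1, Ebf1 and Pax5 overlapped between circulating and endogenous libraries, as did the plasma cell markers Xbp1 and Sdc1. Of the T cell markers only Cd4 separated irradiated from endogenous libraries. The part of these cell types in the ribosomal protein results was not tested. In bulk samples, fewer cells of a type and less RNA per cell cannot be told apart.

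Together the 83 members took 3.10%, 3.25% and 3.10% of the estimated counts in the circulating libraries, 3.34%, 3.80% and 3.17% in the irradiated ones and 2.88%, 3.02% and 3.74% in the endogenous ones. The 95% Wilson intervals of these shares were at most 0.0185 percentage points wide and cover counting error only, as PCR copies of a molecule were not told apart. As group means the shares were 3.15% ± 0.0868 for circulating, 3.44% ± 0.326 for irradiated and 3.21% ± 0.460 for endogenous cells (SD, n = 3 each), so on this scale the 3 groups overlapped. Summed deposited values were 33577 ± 2075, 34835 ± 2604 and 29672 ± 3993 in the same groups.

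By mean deposited value over 9 libraries the high end held Rpl4 (1334), Rpl3 (1307), Rplp0 (1133) and Rps6 (1076). Rpl4 and Rpl3 encode large-subunit proteins at the exit tunnel and the catalytic centre, and Rps6 encodes the small-subunit protein that S6 kinases phosphorylate. Deposited values are not divided by gene length. Per kilobase of annotated exon the mean values of these genes were 665 for Rpl4, 412 for Rpl3, 683 for Rplp0 and 678 for Rps6. At the low end stood Rpl3l (2.18, or 1.33 per kilobase), a paralogue of Rpl3 known from striated muscle, then Rps19bp1 (21.5, or 19.9 per kilobase) and Rpl27 (37.0, or 24.1 per kilobase). Rpl3l values came mostly from a single library: 13.8, 0.0376 and 0.311 in circulating, 0.696, 0.967 and 0.307 in irradiated, and 0.175, 2.05 and 1.26 in endogenous libraries, where the lowest of these is an estimated count of 0. Beside Rpl27, its copy Rpl27-ps3, annotated as a processed pseudogene, averaged 182, and Rpl10-ps3, annotated as protein coding, averaged 405 beside 115 for Rpl10, the gene whose transcript it shares 92.1% of 50-base words with. Small-subunit gene Rps12 has no row among the members, and Rps12-ps3, left out by its symbol, averaged 142.

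Reads of these genes are hard to place. Of all 50-base words in a member's transcript, a median of 60% also occurred in transcripts of other annotated genes, and the share exceeded 50% in 53 of 83 members. It was 0% in Rpl3l and in Rps19bp1. Of the genes that carry the results below, Rpl7l1 (12.2%), Rps27l (13.7%) and Rpl4 (16.5%) shared little, whereas Rps25 (61.2%), Rpl36al (63.3%) and Rps27 (98.7%, nearly all with Rps27rt) shared much. Estimated counts were fractional in every library for 78 members, so values of the sharing genes depend on how reads were divided between copies.

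Library by library, the core genes varied together. Each gene's log2 value was set against its own mean over 9 libraries, and the median deviation over 76 core genes was -0.07, 0.08 and 0.09 in the circulating, 0.11, 0.23 and -0.00 in the irradiated, and -0.34, -0.21 and 0.11 in the endogenous libraries. Endogenous 3 therefore lay with the circulating and irradiated libraries and apart from endogenous 1 and 2. Scaled by library size alone, the medians were -0.08, 0.00 and -0.09 in circulating, 0.05, 0.25 and -0.03 in irradiated, and -0.22, -0.12 and 0.24 in endogenous libraries, and endogenous 3 then stood beside irradiated 2 as the highest pair. On the deposited scale 62 core genes were above their own mean in endogenous 3, against 0 in endogenous 1, while endogenous 2 had 2 such genes. In irradiated 2 all 76 were above it.

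**Figure D1:**
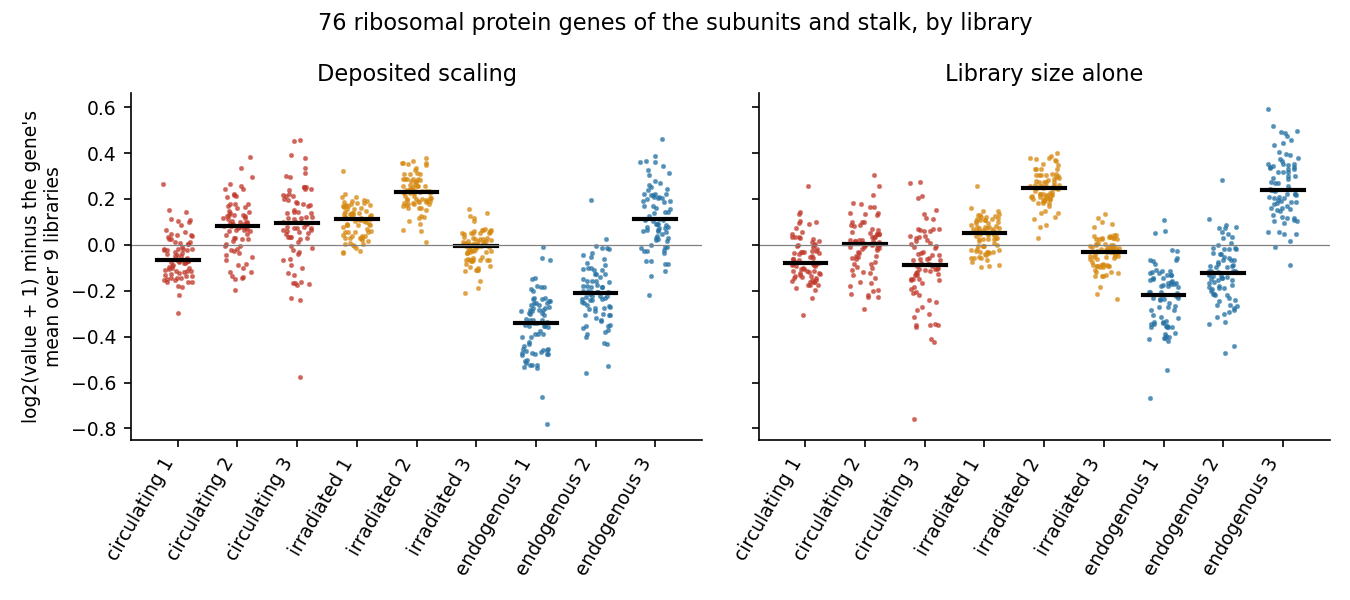
Deviation of each core ribosomal protein gene from its own mean over 9 libraries (log2, vertical axis), for the circulating, irradiated and endogenous libraries, as deposited and after scaling by library size alone. Endogenous 1 and 2 have medians of -0.34 and -0.21 as deposited, against 0.11 in endogenous 3, and the gap between these libraries is present on both scales.

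Endogenous 3 was the highest endogenous library for 74 of the 76 core genes (97.4%), beside 33.1% of all 13771 tested genes. Endogenous 1 was the lowest of all 9 libraries for 62 core genes, and irradiated 2 was the highest of all 9 for 45. Among the irradiated libraries, irradiated 2 was highest for 70 core genes and irradiated 3 lowest for 72. Endogenous 1 and 2 both lay below every irradiated library for 68 core genes and below every circulating library for 60. Endogenous 3, by contrast, exceeded the lowest irradiated library for 61 and the lowest circulating library for 68. All these counts use deposited values, and those without a share beside them were not taken over all genes. By library size the median deviation of endogenous 2 (-0.12) lay close to those of circulating 1 (-0.08) and circulating 3 (-0.09). The median SD between libraries of a group was 0.125 log2 units for circulating, 0.122 for irradiated and 0.250 for endogenous cells over the core genes, while 2465 genes with a mean value of at least 100 had 0.223, 0.117 and 0.155.

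Short core genes differed more between endogenous libraries than long ones. Across the 76 core genes, Spearman's rho between coding length (75 to 1257 bases) and the difference of endogenous 3 from the mean of endogenous 1 and 2 was -0.56, and across all 5405 genes in the same length range it was -0.06. Core genes under 400 coding bases (24 genes) had a median difference of 0.47 log2 units and those of at least 600 bases (22 genes) 0.27, against 0.06 and -0.02 for all genes of these lengths. The difference of irradiated 2 from irradiated 1 and 3 followed length in the same direction, with rho -0.47 across core genes and -0.05 across all genes. Between groups it hardly did: rho was 0.11 for circulating minus endogenous, 0.12 for circulating minus irradiated and 0.07 for irradiated minus endogenous. These are descriptions across genes of the same libraries, and genes are not independent replicates.

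**Figure D2:**
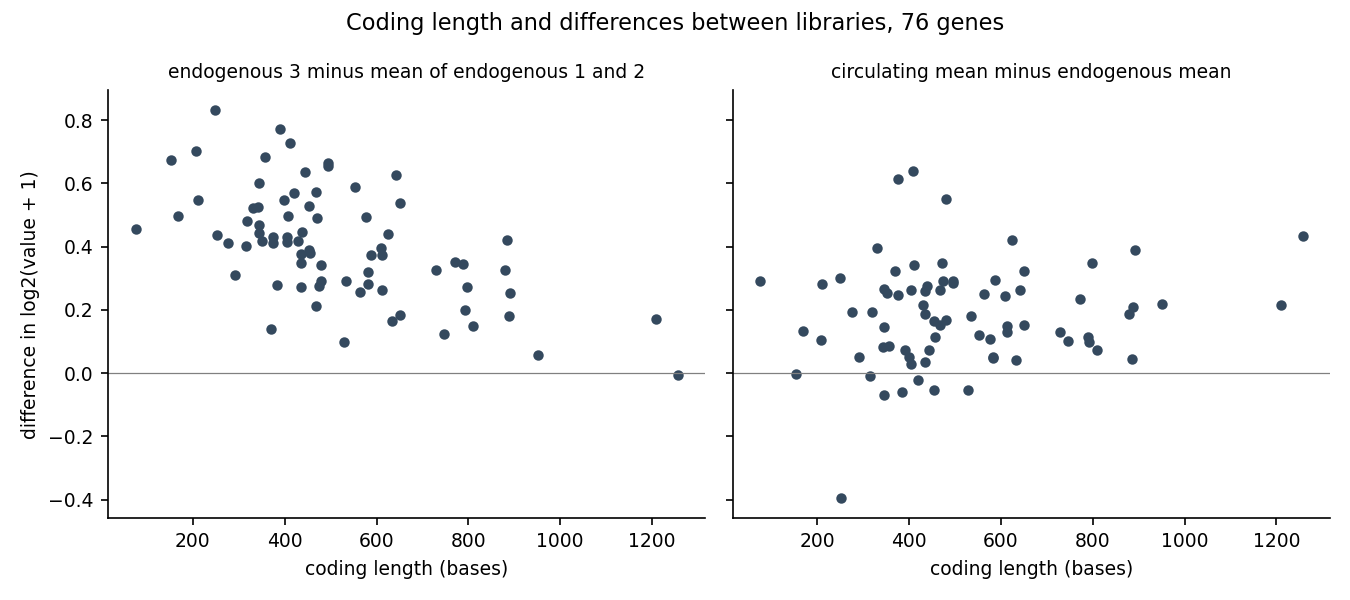
Coding length in bases (horizontal axis) against a log2 difference (vertical axis) for 76 core genes, between endogenous 3 and the mean of endogenous 1 and 2, and between the circulating and endogenous means. Short genes lie higher in the difference between endogenous libraries (rho -0.56), and no such slope is seen in the group difference (rho 0.11).

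Circulating cells had higher values than endogenous cells for most members on the deposited scale, but few passed the test. With limma on log2(value + 1) and p-values adjusted over all genes, 5 of 83 members rose (6.02%), beside 5.33% of all genes tested, and 0 fell, beside 3.3%. The share of members called was thus near that of all genes. The median log2 fold change over members was 0.19, with 74 of 83 above 0 (beside 47% of all genes) and a median of -0.04 for all genes, but it was -0.02 under scaling by library size and -0.08 under quantile normalization. At an unadjusted p under 0.05, 17 members were higher (20.5%, beside 14.2% of all genes) and 0 lower (beside 12.5%), and in 11 members every circulating library exceeded every endogenous one (13.3%, beside 14.6%). Without endogenous 1 no member passed, and without endogenous 3 the member median was 0.33.

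**Figure D3:**
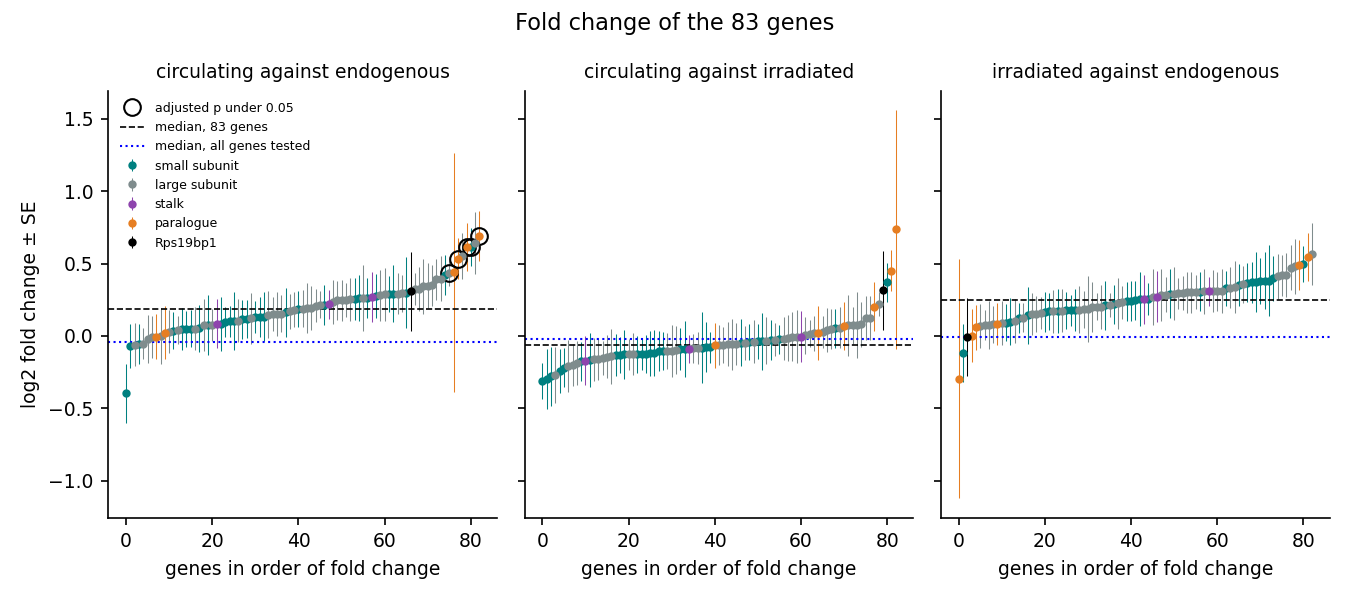
Log2 fold change ± SE (vertical axis) of the 83 members in order of fold change (horizontal axis), coloured by role, in the 3 comparisons on the deposited scale. Rings mark the 5 called genes, and lines mark the medians of the members and of all genes. Most members lie above 0 in circulating against endogenous (74 of 83) and in irradiated against endogenous (80 of 83), with medians of 0.19 and 0.24, and the first median is -0.02 under scaling by library size.

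In the large subunit 1 of 43 genes rose, Rpl4 (mm10 chr9:64173375-64178666, plus strand), a protein whose long loop lines the peptide exit tunnel. Rpl4 had 1428, 1569 and 1626 in circulating, 1294, 1333 and 1337 in irradiated, and 1111, 1173 and 1138 in endogenous libraries. As deposited, the 3 groups did not overlap in any pairing, and every circulating library lay above all others. Under library size scaling irradiated and endogenous libraries overlap. Its log2 fold change for circulating against endogenous was 0.43 with SE 0.08 (limma, adjusted p = 0.0157), and under library size scaling it was 0.23 (limma, adjusted p = 0.0850). Among 23 alternatives Rpl4 lost the call in 5, fewer than any other called member, and over all 23, kept calls included, its adjusted p ran from 0.00455 to 0.256.

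In the small subunit 1 of 30 genes rose, Rps25 (chr9:44407139-44410427, plus strand), a protein of the head region that internal ribosome entry sites use. Rps25 had 568, 616 and 595 in circulating, 474, 492 and 413 in irradiated, and 343, 357 and 472 in endogenous libraries. As deposited, circulating values lay above all others, while endogenous 3 fell within the irradiated range. The log2 fold change was 0.61 with SE 0.13 (limma, adjusted p = 0.0223) and 0.41 under library size scaling (limma, adjusted p = 0.0823). Against irradiated cells Rps25 was 0.37 higher without passing (limma, adjusted p = 0.353), and it lost its call against endogenous cells in 8 of 23 alternatives. Over all 23, Rps25 had adjusted p of 0.0161 to 0.202.

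Paralogues made up the other 3 calls, which is 3 of 6. Rpl36al (chr12:69182731-69184083, minus strand), a near-identical autosomal relative of the X-linked Rpl36a, had 206, 293 and 333 in circulating, 230.2, 239.6 and 239 in irradiated, and 146, 173 and 188 in endogenous libraries. As deposited, both other groups lay above the endogenous range, and circulating 1 lay below all irradiated libraries. Under library size scaling circulating and endogenous libraries overlap. The log2 fold change of Rpl36al for circulating against endogenous was 0.69 with SE 0.17 (limma, adjusted p = 0.0341). By library size it was 0.49 (limma, adjusted p = 0.0702), and the call was lost in 13 of 23 alternatives. Over all 23, Rpl36al had adjusted p of 0.00369 to 0.125.

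Rps27l (chr9:66946086-66949516, plus strand), a paralogue of Rps27 that p53 is known to induce, had 175, 221 and 238 in circulating, 199, 200.5 and 200.5 in irradiated, and 109, 149 and 158 in endogenous libraries. Neither other group overlapped the endogenous one. The log2 fold change was 0.61 with SE 0.16 for circulating against endogenous (limma, adjusted p = 0.0428) and 0.55 for irradiated against endogenous (limma, adjusted p = 0.151). Under library size scaling the fold change for circulating against endogenous was 0.41 (limma, adjusted p = 0.109). The call was lost in 15 of 23 alternatives. Over all 23, Rps27l had adjusted p of 0.0144 to 0.142.

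Rpl7l1 (chr17:46773907-46782672, minus strand), whose yeast relative Rlp7 acts in assembly of the large subunit, had 211, 272 and 289 in circulating, 195, 169.5 and 195 in irradiated, and 168, 192 and 168 in endogenous libraries. All circulating libraries were above all others, and the other groups overlapped. Its log2 fold change was 0.53 with SE 0.14 against endogenous (limma, adjusted p = 0.0430) and 0.45 against irradiated cells (limma, adjusted p = 0.309), and the first call was lost in 16 of 23 alternatives. Under library size scaling the fold change against endogenous was 0.33 (limma, adjusted p = 0.111). Over all 23, Rpl7l1 had adjusted p of 0.00858 to 0.155.

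**Figure D4:**
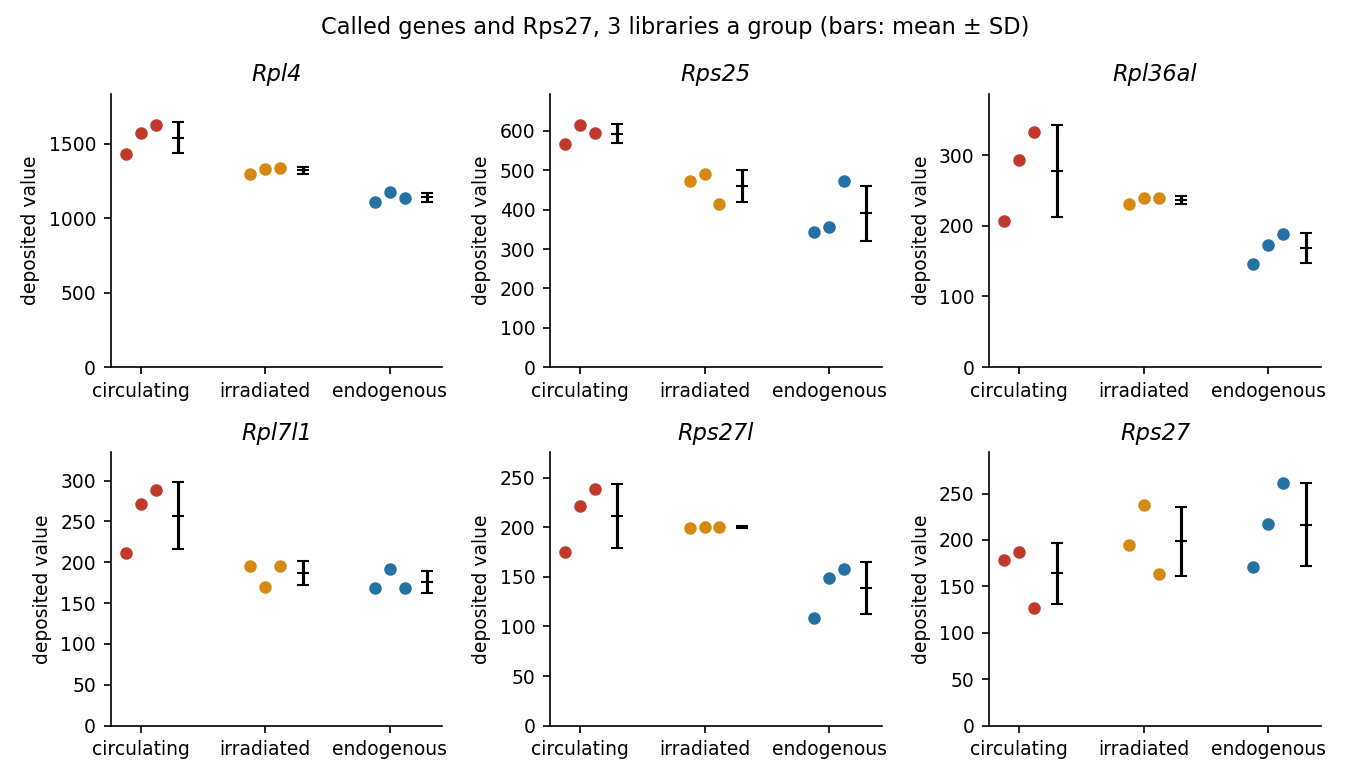
Deposited values (vertical axis, from 0) of the 5 members called between circulating and endogenous cells and of Rps27, 3 libraries a group, with bars for mean ± SD. On this deposited scale every circulating library lies above every endogenous one in the 5 called genes, whereas Rps27 overlaps between the groups. For Rpl36al the separation is lost under library size scaling.

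Other members gave values and no call. Rpl29, singled out after its values were seen because it stood just outside the threshold, had 216, 273 and 312 in circulating, 255, 256 and 237 in irradiated, and 157, 175 and 211 in endogenous libraries (log2 fold change 0.55 for circulating against endogenous, limma, adjusted p = 0.0506). Rpl27 had 40.2, 41.0 and 47.2 in circulating, 39.6, 41.8 and 40.3 in irradiated, and 20.6, 28.0 and 34.3 in endogenous libraries, a log2 fold change of 0.64 against endogenous (limma, adjusted p = 0.0859). With the counts of Rpl27-ps3 added to it, a step chosen after seeing the data, that difference was 0.34. Rpl27 itself was not called, and the sum was not tested.

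Rps27 was the lowest member in circulating against endogenous cells and ran opposite to its paralogue. It had 179, 187 and 126 in circulating, 195, 237 and 163 in irradiated, and 171, 217 and 261 in endogenous libraries, which overlap. Its log2 fold change was -0.40 with SE 0.20 (limma, adjusted p = 0.240), and it was -0.60 under library size scaling (limma, adjusted p = 0.108). Next lowest were Rps26 (log2 fold change -0.07) and Rpl22 (-0.06), both overlapping between groups. Rps26 had 140.5, 145 and 161 in circulating libraries, against 132, 150.2 and 192 in endogenous ones.

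The stalk proteins, which recruit elongation factors, gave 0 calls of 3. Rplp0 had 1033, 1178 and 1284 in circulating, 1242, 1286 and 1180.0 in irradiated, and 991, 979.5 and 1024 in endogenous libraries. As deposited, the endogenous libraries lay below both other groups without a call. Under library size scaling circulating and endogenous libraries overlap for Rplp0. Rplp1 had 203, 214 and 180.2 in circulating, 223, 259 and 194 in irradiated, and 159.7, 172 and 239 in endogenous libraries, and Rplp2 had 159, 182 and 172, then 163, 192 and 161, and 116, 131 and 188 in the same order. Both repeat the gap between endogenous 3 and the other endogenous libraries.

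Rpl5 and Rpl11 form a particle with 5S ribosomal RNA that restrains Mdm2. Rpl5 had 793, 936 and 1185 in circulating, 973, 921 and 869.9 in irradiated, and 660.1, 719.8 and 822 in endogenous libraries (log2 fold change for circulating against endogenous 0.39, limma, adjusted p = 0.111). Rpl11 had 238, 257 and 253 in circulating, 275, 281 and 247 in irradiated, and 199.9, 210.4 and 251 in endogenous libraries. Only irradiated against endogenous Rpl5 was free of overlap among these deposited values, and no comparison passed.

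Of 19 measured genes mutated in human Diamond-Blackfan anaemia, 0 were called between circulating and endogenous cells by limma (beside 5.33% of all genes higher and 3.3% lower). At an unadjusted p under 0.05, 3 were higher (15.8%, near the 14.2% of all genes) and 0 lower (beside 12.5%), and the median log2 fold change was 0.18, or -0.02 under library size scaling. Rps19, the gene most often mutated in that disease, had 737, 852 and 747 in circulating, 860.0, 968 and 742 in irradiated, and 696, 726 and 859 in endogenous libraries. The groups overlapped in every pairing. Rpsa, a small-subunit protein also described as a laminin receptor, had 593, 595 and 764 in circulating, 749, 732 and 649.6 in irradiated, and 541, 595 and 761 in endogenous libraries, and these too overlapped.

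Most members had higher values in irradiated than in endogenous cells, and none passed the test. By limma 0 of 83 members passed, beside 0.472% of all genes tested higher and 0.131% lower, and limma with voom weights also called 0. At an unadjusted p under 0.05, 26 members were higher (31.3%, beside 9.42% of all genes) and 0 lower (beside 5.49%). The groups did not overlap, with irradiated higher, in 17 members (20.5%, beside 15.2%), and in 0 with irradiated lower (beside 12.5%). The median log2 fold change was 0.24, with 80 members above 0 (beside 49.1% of all genes) and a median of -0.01 for all genes, and it stayed above 0 under each of the 6 scalings (0.08 to 0.24). Without endogenous 1 the median was 0.14, and without endogenous 3 it was 0.38.

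By role the median log2 fold change of irradiated against endogenous was 0.24 in the small subunit, 0.27 in the large subunit, where 43 of 43 genes were above 0, and 0.27 in the stalk. Under library size scaling these medians were 0.11, 0.14 and 0.14. The highest core values were those of Rpl27 (0.57, limma, adjusted p = 0.237) and Rps2 (0.50, limma, adjusted p = 0.103). Rps2, a small-subunit protein near the messenger entry, had 1011, 1030.0 and 893 in irradiated libraries, against 687, 599 and 804 in endogenous ones. The lowest were Rpl3l (-0.30), Rps27 (-0.12) and Rps19bp1 (-0.01). Rps19bp1 had 17.7, 18.1 and 23.0 in irradiated libraries, against 22.4, 15.3 and 21.9 in endogenous ones. Fits that weighted libraries or used only these groups called 5 and 3 members, among them Rps2, Rplp0 and Rpl36al in both. The shares of all genes called in those fits are not given here, so these counts cannot be set against them.

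Circulating and irradiated cells share a strain label, and no ribosomal protein gene passed the test between them. By limma 0 of 83 members were called, beside 0.0218% of all genes higher and 0.00726% lower, and voom weights gave 0 as well. At an unadjusted p under 0.05, 3 members were higher (beside 4.92% of all genes) and 1 lower (beside 6.51%). The groups did not overlap with circulating higher in 3 members (3.61%, beside 7.46%) and with circulating lower in 4 (beside 9.26%). The median log2 fold change was -0.06, with 22 of 83 above 0 (beside 47.1% of all genes) and a median of -0.02 for all genes, and it lay between -0.15 and -0.05 under the 6 scalings. Without irradiated 2 it was -0.00.

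In the small subunit 2 of 30 genes were above 0 in circulating against irradiated cells (median -0.11), and in the large subunit 14 of 43 (median -0.05). The most positive values belonged to Rpl3l (0.74), Rpl7l1 (0.45) and Rps25 (0.37), and the most negative to Rps2 (-0.31), Rps15a (-0.30) and Rps27 (-0.28). Rps2 had 723, 782 and 862 in circulating libraries, all below the 1011, 1030.0 and 893 of the irradiated ones (limma, adjusted p = 0.391). Rps15a, a small-subunit protein, had 141, 172 and 131 in circulating libraries, against 181, 195 and 168 in irradiated ones, which overlap. The comparisons share libraries, so their values are given side by side and are not independent.

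Ratios between paralogues within a library do not depend on its scaling. Rps27l over Rps27 was 0.980, 1.18 and 1.88 in circulating, 1.02, 0.844 and 1.23 in irradiated, and 0.636, 0.687 and 0.604 in endogenous libraries, so both other groups lay wholly above the endogenous one. The log2 difference of the mean log ratios was 1.02 for circulating against endogenous (exact two-sided permutation test, p = 0.1, adjusted over 15 ratio tests 0.375) and 0.67 for irradiated against endogenous (exact permutation p = 0.1). With 3 libraries a group 0.1 is the smallest p this test can give. Because nearly every word of the Rps27 transcript is shared with Rps27rt, the denominator depends on how reads were divided, and Rps27rt over Rps27 was 0.292 ± 0.0836 in circulating libraries, 0.232 ± 0.0298 in irradiated ones and 0.213 ± 0.0227 in endogenous ones (SD, n = 3 each).

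Rpl7l1 over Rpl7 was 0.381, 0.446 and 0.439 in circulating, 0.294, 0.260 and 0.319 in irradiated, and 0.328, 0.319 and 0.273 in endogenous libraries. All circulating ratios were above all others. The log2 difference of the mean log ratios was 0.46 against endogenous and 0.54 against irradiated libraries. Both had an exact permutation p = 0.1, the smallest possible, or 0.375 adjusted over 15 ratio tests. Rpl36al over Rpl36a was 1.21, 1.90 and 1.93 in circulating, 1.40, 1.28 and 1.61 in irradiated, and 1.29, 1.18 and 1.04 in endogenous libraries, which overlap (exact permutation p = 0.2 for circulating against endogenous). Rpl22l1 over Rpl22, a pair in which the paralogue compensates for loss of Rpl22 in mice, averaged 0.607 ± 0.0488 in circulating libraries, 0.567 ± 0.0375 in irradiated ones and 0.584 ± 0.0382 in endogenous ones (SD, n = 3 each), with overlap in every pairing.

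Scaling decided the sign of the member median in circulating against endogenous cells. It was 0.19 as deposited, 0.19 with median-of-ratios factors, 0.10 with upper-quartile factors, -0.02 by library size, -0.02 by library size with the members' counts taken out, and -0.08 after quantile normalization, and the numbers of members called were 5, 6, 3, 0, 0 and 0. Library size alone moved the median of all genes by -0.18, and relative to it the members lay at 0.21, beside 0.23 as deposited. After quantile normalization this distance was -0.06. Across all genes, library size scaling gave 339 higher and 817 lower calls, against 734 and 455 as deposited.

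**Figure D5:**
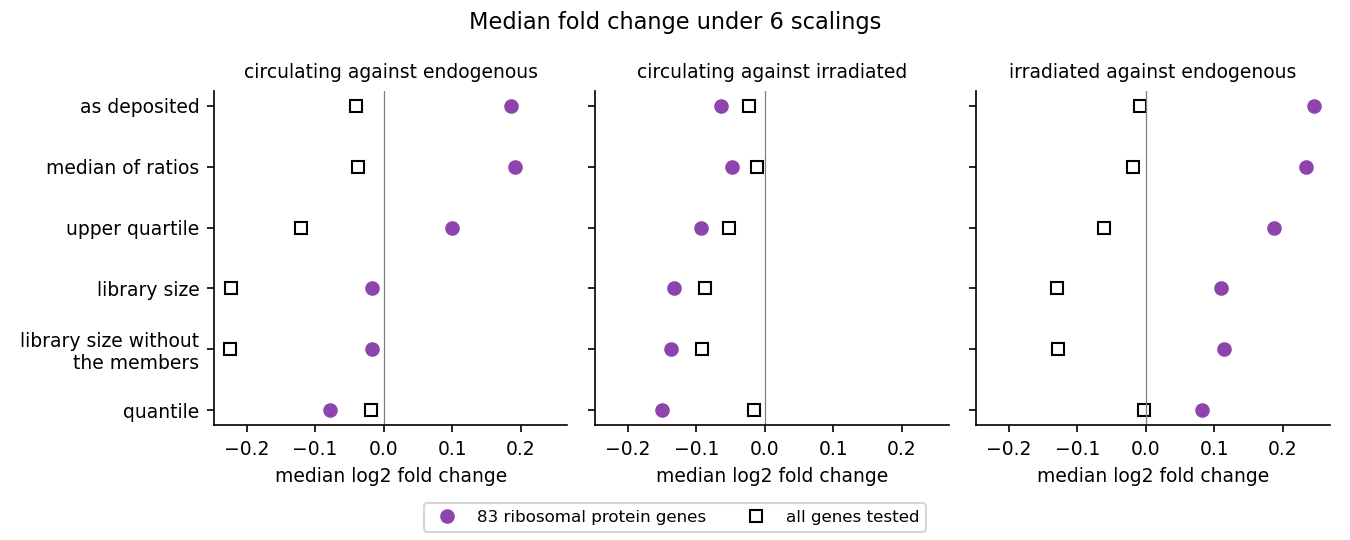
Median log2 fold change (horizontal axis) over the 83 members (circles) and over all genes tested (squares) in the 3 comparisons under 6 scalings (rows). In circulating against endogenous the member median runs from 0.19 as deposited to -0.08 after quantile normalization, and in irradiated against endogenous it is above 0 in all 6 rows.

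For irradiated against endogenous cells the member median was 0.24 as deposited, 0.11 by library size, where the median of all genes moved by -0.12, and 0.08 after quantile normalization, with 80, 67 and 58 members above 0. The members' distance from the median of all genes was 0.25 as deposited, 0.24 by library size and 0.08 after quantile normalization. For circulating against irradiated cells the distances were -0.04, -0.05 and -0.13. No member was called under any of the 6 scalings in either comparison. With the members' own counts left out of the library size, the medians were 0.11 for irradiated against endogenous and -0.14 for circulating against irradiated cells, beside 0.11 and -0.13 by library size alone.

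Calls were also counted in other genes of the translation pathway, and the difference between the lists was not tested. Of 34 translation factors and partners, 10 rose in circulating against endogenous cells (29.4%, beside 5.33% of all genes) and 0 fell (beside 3.3%), with a median log2 fold change of 0.32, but 1 was called higher and 1 lower under library size scaling, and 0 and 2 after quantile normalization. Eif2s1, the regulated subunit of the initiator tRNA carrier eIF2, averaged 457 ± 81.3 in circulating libraries, against 282 ± 11.9 in endogenous ones (log2 fold change 0.68, limma, adjusted p = 0.0172). Eif4e, the cap-binding protein, averaged 563 ± 85.0 in circulating and 380 ± 29.8 in endogenous cells (0.56, limma, adjusted p = 0.0232). Eif5a, which relieves stalled elongation, averaged 1766 ± 325 in circulating and 1224 ± 57.7 in endogenous cells (0.51, limma, adjusted p = 0.0322), and Eif3g, a subunit of the scaffold factor eIF3, 253 ± 48.3 and 175 ± 8.99 (0.51, limma, adjusted p = 0.0483), each with SD and n = 3.

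Between circulating and irradiated cells 0 of these 34 were called by limma (beside 0.0218% of all genes higher and 0.00726% lower). At an unadjusted p under 0.05, 2 were higher (5.88%, beside 4.92%) and 1 lower (beside 6.51%), near the shares of all genes. The largest differences were -0.58 for Eif3f (limma, adjusted p = 0.493) and -0.55 for Eif4g2 (limma, adjusted p = 0.293). Between irradiated and endogenous cells 0 were called (beside 0.472% higher and 0.131% lower), and 13 were higher at an unadjusted p under 0.05 (38.2%, beside 9.42%) and 0 lower (beside 5.49%), with the largest differences in Eif3b (0.59, limma, adjusted p = 0.325) and Eif5a (0.57, limma, adjusted p = 0.0660). Fau and Rack1, which encode ribosomal proteins outside the symbol rule, gave 0 calls in any comparison. Rack1 averaged 647 ± 98.0 in circulating libraries, 707 ± 15.2 in irradiated ones and 525 ± 41.7 in endogenous ones (SD, n = 3 each).

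Mitochondrial ribosomal protein genes, 78 in number, are made for a separate ribosome and serve as a second set of similar size. In circulating against endogenous cells 10 of them rose (12.8%, beside 5.33% of all genes) and 0 fell (beside 3.3%), but 2 were called higher under library size scaling, 3 after quantile normalization and 4 with upper-quartile factors. Their median log2 fold change was 0.39 as deposited, 0.19 under library size scaling and 0.29 after quantile normalization. Groups did not overlap, with circulating higher, in 50 of the 78 (64.1%), beside 14.6% of all genes and 11 of the 83 cytosolic ones (13.3%). In irradiated against endogenous cells 0 were called and 58 did not overlap (74.4%, beside 15.2% of all genes), with a median of 0.36. These counts are given side by side, and the difference between the lists was not tested.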

How the data were processed

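RNA from 9 sorted LSK libraries was amplified with SMART-Seq v4 and made into Nextera XT libraries, which do not mark strand, per the labels' protocols. CASAVA, RSEM 1.3.1, limma and the build mm10 appear, without roles, in the submitters' processing notes, which leave the scaling unstated. The deposited values are a normalised signal; each, within 0.001 of the last decimal step, is a 2-decimal number plus 0.5 times a column constant. Only 14.4% of recovered estimated counts were whole.

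Symbols and coordinates came from GENCODE M21 (GRCm38; 14405 of 14461 IDs matched). Values plus 1 were taken to log2 and fitted by limma 3.58.1 (R 4.3.3) with trend and robust moderation, without covariates, all 9 libraries together, over 13771 genes with a value of at least 1 in at least 3 libraries. Benjamini-Hochberg p-values under 0.05 were called. Fold changes on this scale understate low genes. A fold change above 0 means a higher first-named group. The fit was tested on simulated data. Ratios used exact permutation tests (SciPy 1.17.1).

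Members, gene lists and the rules for named genes were chosen with earlier results of these data known. Named members were all called genes, the 3 highest and 3 lowest fold changes per comparison, the 5 highest and 3 lowest means, paralogue pairs and stalk, 5S, Rps19 and Rpsa genes. Some genes that these rules and lists select are not reported here. Alternatives covered scaling, pseudocount, filter, weights, samples, moderation, replicate block and each library left out.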

Additional observations from a re-analysis of the deposited data

How the results depend on the processing

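Between circulating and endogenous cells 5 members were called. The count was 0 under library size, 0 under library size without the members, 0 after quantile normalization, 3 under upper quartile scaling, 1 with sample weights, 0 with only the 2 groups compared, 3 with voom weights, and 2 without the paralogues and Rps19bp1, a choice made after seeing the data. The member median of 0.19 turned to -0.0166, -0.0175 and -0.078 under library size, library size without the members and quantile normalization. Leaving out 1 library gave 0 (endogenous 1) to 10 (circulating 1) calls and medians of 0.0749 to 0.3307; it was 2 without circulating 2 or any irradiated library, and 1 without circulating 3 or endogenous 2. Between irradiated and endogenous cells the median was 0.082 after quantile normalization, 5 members were called with sample weights and 3 with only the 2 groups compared, and leave-one-out medians were 0.1417 to 0.3805 with 0 calls. Between circulating and irradiated cells they were -0.1221 to -0.0019 with 0 calls. For the weighted, 2-group and leave-one-out fits, the shares of all genes called are not given here. The cause of these shifts was not tested.

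With the replicate block, 5 members were called between circulating and endogenous cells, where Rpl29 gained a call and Rpl7l1 lost it, and 0 in the other comparisons. Per the labels' titles, circulating and irradiated libraries with the same number also have the same DD code, and endogenous ones an SJ code. What these codes mark is not stated. Deviations of same-numbered libraries correlated at 0.05, 0.03 and 0.18 between circulating and irradiated cells and at -0.02 to 0.08 in the other comparisons, and circulating 1 correlated more with irradiated 2 (0.11) than with irradiated 1. Different-numbered circulating and irradiated libraries correlated at -0.17 to 0.11, and most of these values were negative. Pairing was not tested and cannot be settled from so few libraries, and the block was kept as an alternative. Restricting to members with whole estimated counts was not run, since 1 member was left. Depth bounds mainly Rpl3l, at an estimated count of 0 in circulating 2.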
